A study of Mus musculus with 4 samples.

Results

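The transcripts described here are those of the nuclear-encoded machinery of oxidative phosphorylation in mouse macrophages. They were taken from the array annotation by symbol: every probe set with a single gene symbol that starts with Nduf, Uqcr, Cox4, Cox5, Cox6, Cox7, Cox8 or Atp5, and Sdha, Sdhb, Sdhc, Sdhd, Cyc1 and Cycs. The rule gave 104 probe sets of 91 genes, among 23521 single-symbol probe sets of 22180 genes. For the 10 of these 91 genes that had several probe sets, the brightest on average stood for the gene. A filter on level (a mean at or above the 40th percentile of genes, log2 2.44) kept 13308 genes and 86 of the 91. The 86 comprise 40 genes of complex I (6 core subunits, 26 accessory subunits and 8 assembly factors of the Ndufaf series), 4 of complex II, 8 of complex III, cytochrome c, 16 of complex IV and 17 of complex V. The 5 under the filter were Cox7b2, Cox8b and Cox8c, forms of complex IV subunits known from testis or muscle, and the pseudogenes Atp5c1-ps and Uqcrh-ps1. The label speaks of subunits, and the prefix rule also takes in the Ndufaf genes, which help to build complex I and are not part of it.

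Complexes I to IV pass electrons from NADH, succinate and other donors to oxygen. Complexes I, III and IV pump protons out of the mitochondrial matrix, and complex V, the ATP synthase, uses the returning protons to make ATP. Ubiquinone carries electrons to complex III and cytochrome c carries them on to complex IV. In macrophages the balance between oxidative phosphorylation and glycolysis is known to differ between activation states, and fatty acid oxidation feeds electrons into this chain.

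The cells were bone marrow-derived macrophages of mice aged 8 to 12 weeks, differentiated for 7 days in medium with 15% L929-conditioned medium, a source of the growth factor CSF1. Hilpda encodes a small lipid droplet protein that inhibits adipose triglyceride lipase. The 4 groups were HilpdaΔMΦ cells (KO) after 24 h, Hilpda flox/flox littermate cells (WT) after 24 h, KO cells after 12 h and WT cells after 12 h, and all 4 had received 600 µM fatty acids (palmitate to oleate 1:2) bound to albumin. Each group is 1 array carrying pooled RNA of 3 samples, so no pairwise difference has a replicate error or was tested. The labels used here name no Cre driver, and unloaded cells were not analysed here. The effect of the fatty acids therefore cannot be told apart from time in culture.

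Hilpda itself was measured at a log2 level of 5.27 in KO and 5.47 in WT at 24 h, and at 5.41 in KO and 5.93 in WT at 12 h. It was lower in the KO array at both times, by 0.20 and 0.51. Whether its probe set lies in the deleted part is not stated, so this checks the labels only in part. The macrophage markers were well measured in all 4 arrays, with Adgre1 between 11.28 and 11.82 and Csf1r between 11.54 and 11.80, and all 7 neutrophil markers lay under the level filter. The arrays correlated pairwise at 0.984 to 0.988 over all probe sets. In RNA from whole cultures, fewer cells of a type and less RNA per cell cannot be told apart.

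At 24 h, oxidative phosphorylation genes tended to be a little higher in KO than in WT macrophages. Of the 86 genes, 61 had a KO minus WT difference above 0, which is 70.9%, beside 50.9% of all genes kept. The median difference was small, 0.08 on the log2 scale or 1.06-fold, beside 0.01 over all genes. Single genes seldom differed much. Only Ndufaf2 was past 1.5-fold (a log2 difference of 0.58), at 0.71, and none was lower by that much, where 6.49% of all genes were past 1.5-fold in either direction. At a smaller step of 1.2-fold (0.26 on the log2 scale) 19 genes were higher in KO, or 22.1% beside 15.4% of all genes, and 2 genes were lower, or 2.33% beside 15.5%. The 2 lower genes were Ndufa4l2 and Atp5o, both at low levels.

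At 12 h the lean of the same genes was smaller. The median KO minus WT difference was 0.01, beside 0.00 over all genes, and 46 of 86 lay above 0, which is 53.5% beside 50.6% of all genes. None was past 1.5-fold in either direction, a size reached by 2.9% of all genes. Past 1.2-fold, 5 genes were higher in KO beside 9.77% of all genes, and 6 were lower beside 9.96%. Among the 46 genes with a mean log2 level of 7 or more, where array values scatter less, 29 were above 0 at 12 h, or 63.0% beside 52.6% of all genes at that level, with a median of 0.03 beside 0.01. At 24 h, 34 of these 46 were above 0, or 73.9% beside 52%, with a median of 0.07. The genotype differences at the 2 times share no array. Both were above 0 for 35 genes, which is 40.7% beside 27.5% of all genes, and across the 86 genes they correlated at 0.26 (Pearson), beside 0.11 across all genes, as a description with no test.

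Between 12 h and 24 h the transcripts were lower at the later time mainly in WT cells. In WT, 23 of 86 genes had a 24 h minus 12 h difference above 0 and 63 lay below it, where 49.1% of all genes lay above. The median was -0.13, or 1.10-fold lower, beside -0.01 over all genes. Past 1.5-fold, 3 genes were lower in WT at 24 h (Cox7b, Cox6a2 and Ndufaf2) and none was higher, beside 8.72% of all genes in either direction. Past 1.2-fold, 14 genes were lower, beside 17% of all genes, and 4 were higher, beside 16.9%. In KO, 34 of 86 genes lay above 0, where 50.4% of all genes did, with a median of -0.03. Past 1.5-fold in KO were 4 genes, beside 6.31% of all genes: Cox4i2 and Ndufb11 were higher at 24 h, and Cox7b and Cox5b were lower. Past 1.2-fold in KO, 10 genes were higher, beside 15% of all genes, and 5 were lower, beside 14.7%. The KO minus WT difference at 24 h and the time difference in WT both contain the WT 24 h array, so they are not independent of each other.

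**Figure D1:**
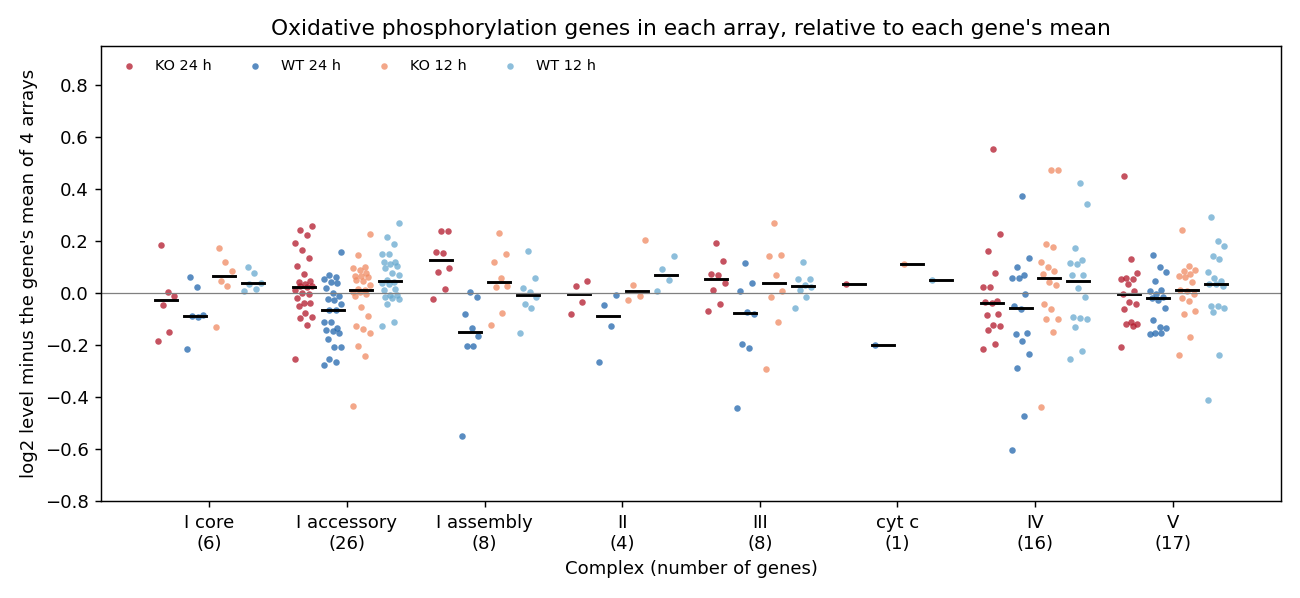
Each point is 1 gene in 1 array, drawn as its log2 level minus that gene's mean over the 4 arrays, with genes grouped by complex along the horizontal axis and black lines for medians. The median of the WT 24 h points is the lowest of the 4 in each set, by little in complexes IV and V, where 7 of 16 and 5 of 17 genes have their lowest level in that array.

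The pattern can be read array by array. The WT 24 h array held the lowest of the 4 levels for 43 of the 86 genes, which is 50% beside 30.2% of all genes, and the highest for 7 genes, which is 8.14% beside 28.6%. The KO 24 h array was lowest for 16, the KO 12 h array for 14 and the WT 12 h array for 13. Among the 46 genes with a mean log2 level of 7 or more, WT 24 h was lowest for 26, beside 33.0% of the 4150 genes at that level. By complex, WT 24 h was lowest for 22 of 40 genes in complex I, 3 of 4 in II, 5 of 8 in III, 7 of 16 in IV and 5 of 17 in V. The share in complex V, 29.4%, was close to that of all genes. The WT 24 h array stood apart in other ways too. Its summed level of the 10 stromal and fibroblast markers was the highest, at log2 9.32 in KO and 10.12 in WT at 24 h, beside 8.79 in KO and 9.30 in WT at 12 h. The 8 of these markers past the filter had a median KO minus WT difference of -0.65 at 24 h and -0.51 at 12 h, all 8 below 0 both times. The 9 macrophage markers measured had a median difference of -0.29 at 24 h, 8 of them below 0, and 0.02 at 12 h. Their summed level was 14.23 in KO and 14.47 in WT at 24 h, and 14.19 in KO and 14.24 in WT at 12 h. The part of these cell type markers in the oxidative phosphorylation pattern was not tested.

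**Figure D2:**
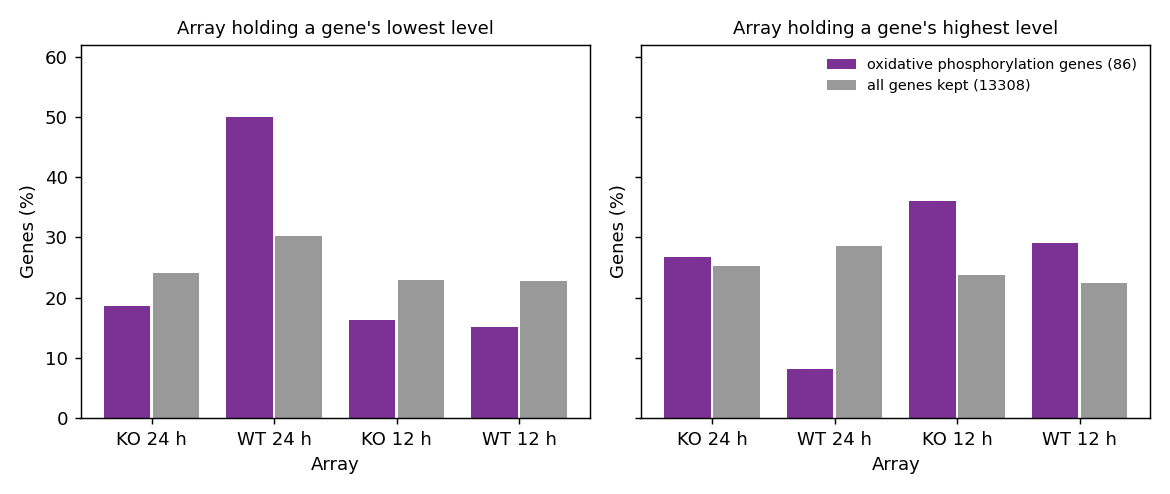
Bars give the percentage of genes whose lowest (left) or highest (right) level of 4 lies in each array, for the 86 oxidative phosphorylation genes and for all 13308 genes kept. WT 24 h is the lowest array for 50% of the oxidative phosphorylation genes and the highest for 8.14%.

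A test was possible only over both times or both genotypes together, in a limma fit of genotype plus time with 1 residual degree of freedom. In that fit 0 of the 13308 genes, or 0%, passed an adjusted p of 0.05 for genotype, and 0, or 0%, for time. At an unadjusted 0.05 the genotype effect counted 868 genes, or 6.52%, and the time effect 1759, or 13.2%. Of the 86 oxidative phosphorylation genes, 5 were among the first (Atp5g1, Ndufa12, Atp5j2 and Uqcrq higher in KO, Atp5o lower), which is no more than that background share. For time, 5 were counted (Atp5g1 and Cox4i2 higher at 24 h, Cox7b, Cox6a2 and Sdhc lower). The lowest adjusted p of these genes was 0.7605 for genotype and 0.1685 for time, reached by Cox7b. With variances fitted on a trend in level, the fit called 0 genes for genotype and 540 for time, or 4.06% of all genes, with Cox7b the 1 call among the 86 (1.16%). With a filter at the 60th percentile it called 146 of 8872 genes for time, or 1.65%, and again Cox7b alone, of 73 (1.37%). Both shares are under those of all genes.

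Nuclear genes of oxidative phosphorylation are known to be targets of the transcription factors NRF1, GABPA (an ETS factor), YY1 and the estrogen-related receptors. Promoter windows of 300 bases, from 250 bases before to 50 after the start, were taken from RefSeq on GRCm38.p6 and matched 71 of the 86 genes with 76 windows. The NRF1 core GCGCATGC, searched on both strands like the other motifs, was in 17.1% of these windows beside 2.71% of all 32851 windows. Those 32851 windows were not filtered on level, so this background is wider than the 13308 genes kept. The ETS core CCGGAAG was in 25.0% beside 8.86%, the YY1 core AANATGGCG in 13.2% beside 2.38%, and the ERR motif TCAAGGTCA in 2 windows, or 2.63% beside 0.423%. At least 1 of these motifs was in 36 windows, or 47.4% beside 13.2%, and the median GC content was 58.8% beside 52.7%. A match is a description of letters and not of a bound site. The 250 bases before the start are shown for 4 genes that were lowest in WT at 24 h and hold a match there, picked after their values were seen to cover several complexes, and for Cox7b, which had the largest time difference in WT and holds none. Capitals mark the matched motif letters, and adjoining matches on the 2 strands run together. The positions are chr4:24897833-24898082 for Ndufaf4 (plus strand), chr9:50603850-50604099 for Sdhd (minus), chr6:50566570-50566819 for Cycs (minus), chr5:115348959-115349208 for Cox6a1 (minus) and chrX:106015450-106015699 for Cox7b (plus).
Ndufaf4: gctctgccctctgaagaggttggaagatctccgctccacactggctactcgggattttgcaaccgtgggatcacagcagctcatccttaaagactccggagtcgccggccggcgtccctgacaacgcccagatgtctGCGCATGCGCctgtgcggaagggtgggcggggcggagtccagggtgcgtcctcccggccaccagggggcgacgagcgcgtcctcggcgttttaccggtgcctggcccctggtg
Sdhd: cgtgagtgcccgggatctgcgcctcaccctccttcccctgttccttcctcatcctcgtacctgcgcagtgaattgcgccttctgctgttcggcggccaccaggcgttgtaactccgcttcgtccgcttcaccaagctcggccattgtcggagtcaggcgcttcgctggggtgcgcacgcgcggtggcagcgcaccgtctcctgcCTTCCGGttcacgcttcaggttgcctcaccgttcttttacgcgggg
Cycs: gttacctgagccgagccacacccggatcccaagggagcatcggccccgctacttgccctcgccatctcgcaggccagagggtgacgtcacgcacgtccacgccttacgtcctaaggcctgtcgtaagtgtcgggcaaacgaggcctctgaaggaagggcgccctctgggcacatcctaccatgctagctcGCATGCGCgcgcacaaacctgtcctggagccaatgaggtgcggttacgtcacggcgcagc
Cox6a1: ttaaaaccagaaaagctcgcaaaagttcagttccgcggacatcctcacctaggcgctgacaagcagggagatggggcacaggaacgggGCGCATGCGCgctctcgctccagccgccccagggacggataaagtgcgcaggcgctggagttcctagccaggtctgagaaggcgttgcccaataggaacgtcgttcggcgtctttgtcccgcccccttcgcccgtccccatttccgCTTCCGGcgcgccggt
Cox7b: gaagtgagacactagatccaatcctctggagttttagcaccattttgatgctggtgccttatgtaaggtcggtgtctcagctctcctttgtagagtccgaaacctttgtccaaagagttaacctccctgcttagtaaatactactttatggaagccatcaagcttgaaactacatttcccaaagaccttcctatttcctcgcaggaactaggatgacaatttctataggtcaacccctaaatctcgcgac
The capitals are the NRF1 core in Ndufaf4 and Cycs, the ETS core in Sdhd, and both, some way apart, in Cox6a1.

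The core subunits of complex I, which bind NADH and hold the flavin and the iron-sulfur clusters, moved little and not all one way. Ndufv1, which binds NADH and FMN, had log2 levels of 7.38 in KO and 7.16 in WT at 24 h, and 7.55 in KO and 7.41 in WT at 12 h. Ndufv2, its iron-sulfur partner, had 7.66 in KO and 7.62 in WT at 24 h, and 7.82 in KO and 7.72 in WT at 12 h. Both were lower at 24 h than at 12 h in each genotype and lowest in WT at 24 h. Ndufs1, the large subunit that carries several iron-sulfur clusters, showed the same order at 7.65 in KO and 7.58 in WT at 24 h, and 7.75 in KO and 7.67 in WT at 12 h. Ndufs7, which holds the cluster next to ubiquinone, stood at 8.68 in KO and 8.41 in WT at 24 h, and 8.37 in KO and 8.53 in WT at 12 h. The KO 24 h array was the highest for Ndufs7, and the genotype difference lay on opposite sides at the 2 times (0.28 and -0.17). Ndufs3 and Ndufs8, by contrast, were lowest in KO at 24 h. Ndufs3 was at 4.19 in KO and 4.44 in WT at 24 h, and at 4.42 in KO and 4.45 in WT at 12 h, and Ndufs8, another iron-sulfur subunit, was at 7.78 in KO and 7.96 in WT at 24 h, and at 7.96 in KO and 8.03 in WT at 12 h. All 6 core genes were lower at 24 h than at 12 h in WT, by at most 0.25, and 5 of 6 in KO. Of all genes, 49.1% were higher at 24 h in WT and 50.4% in KO.

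The 26 accessory subunits, which surround the core, had a median KO minus WT difference of 0.06 at 24 h (18 above 0) and -0.03 at 12 h (12 above 0). Their median time difference was -0.14 in WT, with 19 below 0, and -0.03 in KO. Of all genes, 50.9% and 50.6% lay above 0 between the genotypes at 24 h and 12 h. In the time difference in WT, 49.1% did. Ndufa12, an accessory subunit that takes its place late in assembly, had 7.42 in KO and 6.88 in WT at 24 h, and 7.30 in KO and 7.03 in WT at 12 h. Both KO arrays were above both WT arrays, with differences of 0.54 and 0.27. A dimmer probe set of Ndufa12 gave only 0.08 at 24 h and -0.27 at 12 h, so the 2 probe sets disagree at 12 h. In the fit over both times its genotype effect was 0.40 (SE 0.13) with a limma adjusted p of 0.7605. Ndufab1, the mitochondrial acyl carrier protein, went the other way at 24 h, with 5.01 in KO and 5.22 in WT, and 5.49 in KO and 5.33 in WT at 12 h. It was the accessory subunit with the lowest genotype difference at 24 h, and the KO 24 h array was its lowest.

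For a pair of membrane-arm subunits the genotypes lay further apart at 12 h than at 24 h. Ndufb11, a small membrane-arm subunit, was at 5.24 in KO and 5.23 in WT at 24 h, and at 4.63 in KO and 5.18 in WT at 12 h. Ndufb3, also in the membrane arm, was at 5.06 in KO and 5.04 in WT at 24 h, and at 4.82 in KO and 5.33 in WT at 12 h. Each was lower in KO at 12 h (by 0.55 and 0.51), with KO minus WT differences of 0.01 and 0.02 at 24 h. For Ndufb11 the KO 12 h array alone was low, whereas for Ndufb3 the KO 12 h array lay below and the WT 12 h array above both 24 h arrays. Ndufa6, a LYR-motif protein that binds the acyl carrier protein, was higher at 24 h than at 12 h in both genotypes, with 8.09 in KO and 7.91 in WT at 24 h, and 7.72 in KO and 7.76 in WT at 12 h. Ndufs5, which faces the intermembrane space, had 3.55 in KO and 3.15 in WT at 24 h, and 3.16 in KO and 3.58 in WT at 12 h. The genotypes thus stood in opposite order at the 2 times, at a low level. A brighter probe set annotated to both Ndufs5 and its pseudogene Ndufs5-ps, outside the rule, was at 6.48 in KO and 6.04 in WT at 24 h, and at 6.38 in KO and 6.24 in WT at 12 h. It was higher in KO at both times, so the opposite order was not seen there. Other accessory genes were close to constant: Ndufc2 lay between 8.21 and 8.24 in the 4 arrays, and Ndufa2 and Ndufa9 each spanned under 0.2.

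The assembly factors of complex I showed the widest gap between the genotypes at 24 h. Their median KO minus WT difference was 0.30 at 24 h and 0.07 at 12 h. At 24 h, 7 of 8 were above 0, beside 50.9% of all genes. At least 1.2-fold higher in KO were 5 of 8, beside 15.4% of all genes. Ndufaf2, a paralogue of Ndufa12 that leaves the complex before Ndufa12 joins, was at 3.47 in KO and 2.76 in WT at 24 h, and at 3.54 in KO and 3.47 in WT at 12 h. Only WT at 24 h was low for it, and the other 3 arrays lay within 0.1 of each other. Ndufaf1, which works with Ecsit in building the membrane arm, was at 5.82 in KO and 5.37 in WT at 24 h, and at 5.60 in KO and 5.52 in WT at 12 h. Ndufaf3 and Ndufaf4, which act together early in assembly, were also lowest in WT at 24 h, with differences of 0.32 and 0.29 there and 0.04 and 0.12 at 12 h. Ndufaf7, a methyltransferase needed for assembly, differed: it was at 5.77 in KO and 5.74 in WT at 24 h, and at 5.90 in KO and 5.60 in WT at 12 h. Ndufaf6 and Ndufaf8 were 0.37 and 0.18 higher in KO at 24 h, and Ndufaf5 was the 1 factor slightly lower, at -0.03. Ndufaf2 and Ndufaf6 lie at low levels, where values scatter more: of the 17 genes with a mean level under 5, 29.4% spanned 1.5-fold or more over the 4 arrays, beside 4.35% of the 46 genes at 7 or more.

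**Figure D3:**
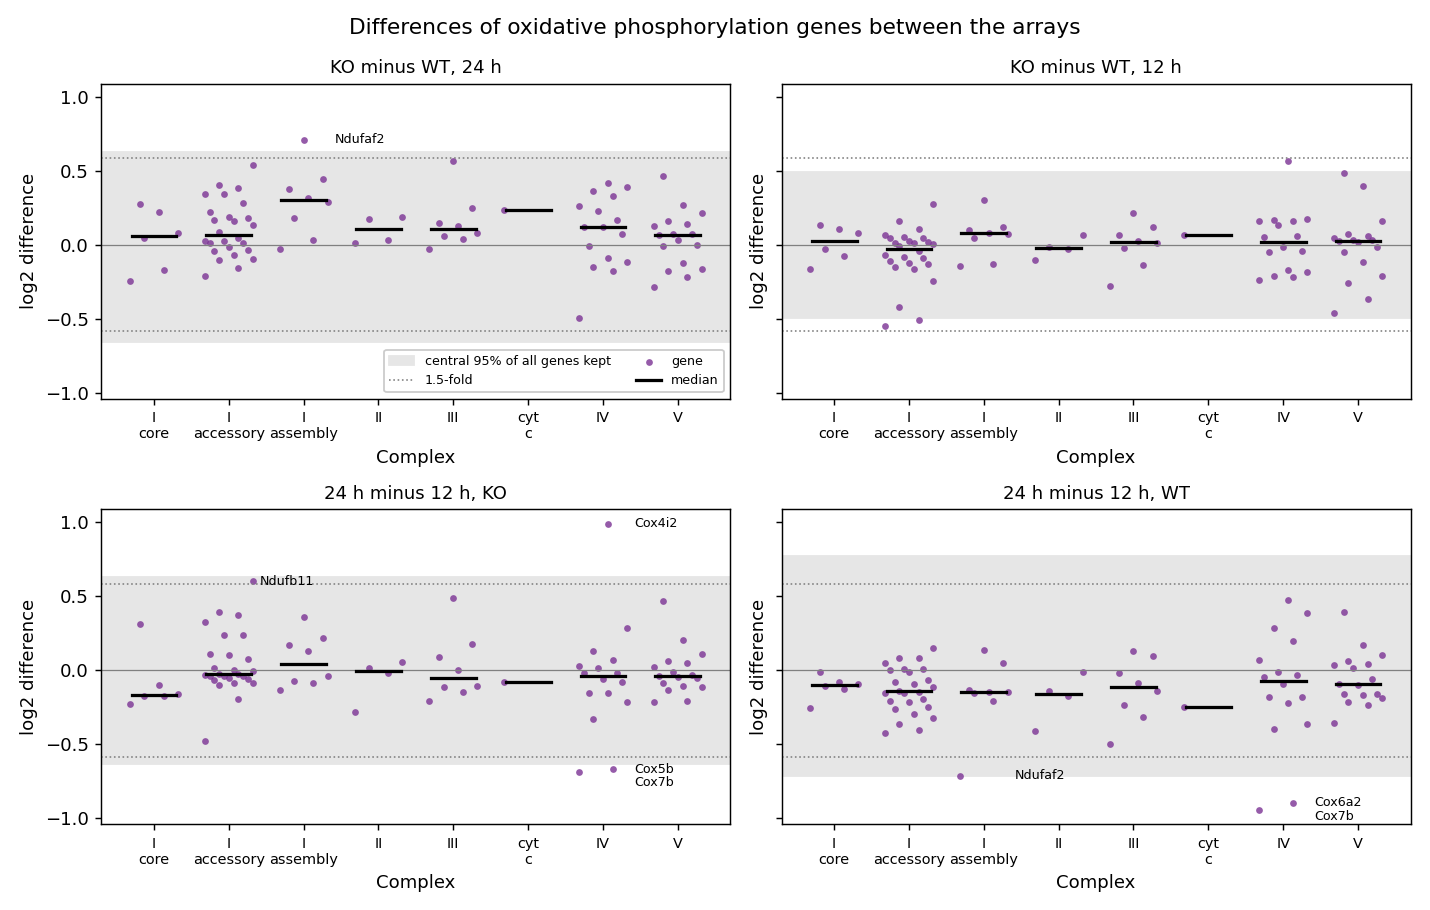
Each point is the log2 difference of 1 gene, with KO minus WT at 24 h and 12 h in the upper panels and 24 h minus 12 h in KO and in WT in the lower panels, genes being grouped by complex with black lines for medians. The grey band holds the central 95% of all genes kept, dotted lines mark 1.5-fold, and genes past that line are named. Nearly all points lie inside the band, and the medians at 24 h are above 0 for every group.

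Assembly factors outside the symbol rule also leaned higher in KO at 24 h, but not at 12 h. Of 39 such genes measured, all past the filter, 29 had a KO minus WT difference above 0 at 24 h. The median was 0.23. At 12 h, 13 lay above 0, with a median of -0.03. Of all genes, 50.9% and 50.6% lay above 0 at 24 h and 12 h. In WT, 31 of 39 were lower at 24 h than at 12 h and 8 were higher, where 49.1% of all genes were higher. The median time difference was -0.16 in WT and 0.02 in KO. Past 1.5-fold in the KO minus WT difference at 24 h were 2 genes, both higher in KO, beside 6.49% of all genes either way. They were Sdhaf3 and Sdhaf4, which help mature succinate dehydrogenase, at 0.72 and 0.77. Sdhaf3 lay at 2.47 to 3.22, near the level filter. Coa6, a copper-handling factor of complex IV, was at 5.91 in KO and 5.35 in WT at 24 h, and at 5.64 in KO and 6.20 in WT at 12 h, a time difference of -0.85 in WT. Sdhaf3 was 0.75 lower at 24 h in WT, and Atpaf1, a chaperone of the ATP synthase, was 0.61 higher at 24 h in KO. The 2 time differences past 1.5-fold in WT stand beside 8.72% of all genes, and the 1 in KO beside 6.31%. The list includes Ecsit, the partner of Ndufaf1, at -0.05 and 0.45 in the genotype differences at 24 h and 12 h.

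Complex II, succinate dehydrogenase, links the citric acid cycle to the chain. Its catalytic flavoprotein Sdha was nearly flat, with 9.69 in KO and 9.66 in WT at 24 h, and 9.64 in KO and 9.67 in WT at 12 h. The iron-sulfur subunit Sdhb was at 7.72 in KO and 7.71 in WT at 24 h, and at 7.74 in KO and 7.85 in WT at 12 h. Neither differed by as much as 0.2 between any of the arrays. The membrane anchor Sdhc was at 8.51 in KO and 8.32 in WT at 24 h, and at 8.79 in KO and 8.73 in WT at 12 h, and the second anchor, Sdhd, was at 8.66 in KO and 8.49 in WT at 24 h, and at 8.64 in KO and 8.66 in WT at 12 h. Both anchors were lowest in WT at 24 h, and Sdhc was lower at 24 h in both genotypes. Its time effect over both genotypes was -0.35 (SE 0.12) with a limma adjusted p of 0.3375. The 12 other enzymes of the citric acid cycle that were measured had medians of 0.05 and -0.05 in the KO minus WT difference at 24 h and 12 h and of 0.03 and -0.02 in the time difference in KO and WT, with none past 1.5-fold.

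In complex III, which passes electrons from ubiquinol to cytochrome c, 7 of 8 genes were higher in KO at 24 h, with a median of 0.10. Of all genes, 50.9% were. The core proteins Uqcrc1 and Uqcrc2 moved little: Uqcrc1 was at 8.64 in KO and 8.49 in WT at 24 h, and at 8.55 in KO and 8.58 in WT at 12 h, and Uqcrc2 spanned 8.46 to 8.61. Uqcrfs1, the Rieske iron-sulfur protein, was at 5.076 in KO and 4.996 in WT at 24 h, and at 4.59 in KO and 4.87 in WT at 12 h. It was higher at 24 h in both genotypes, against the direction of most of the genes. Cyc1, the cytochrome c1 haem protein, spanned only 6.34 to 6.44. Uqcrq, a small subunit, was at 3.90 in KO and 3.34 in WT at 24 h, and at 4.05 in KO and 3.83 in WT at 12 h. Both KO arrays were above both WT arrays for Uqcrq, with a genotype effect of 0.39 (SE 0.14) and a limma adjusted p of 0.7605, at a low level. Uqcrb, near the ubiquinone site, was at 10.14 in KO and 9.89 in WT at 24 h, and at 10.25 in KO and 10.12 in WT at 12 h. Uqcr11 was at 6.01 in KO and 5.88 in WT at 24 h, and at 6.22 in KO and 6.20 in WT at 12 h. Both were lower at 24 h than at 12 h in each genotype, and lowest in WT at 24 h. Uqcrh, the hinge protein, spanned 6.74 to 6.92 with its low point in KO at 12 h.

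Cycs, cytochrome c, was at 8.40 in KO and 8.17 in WT at 24 h, and at 8.48 in KO and 8.42 in WT at 12 h. Only WT at 24 h was low, with a KO minus WT difference of 0.23 at 24 h and 0.06 at 12 h. Cycs had 5 probe sets, 2 of which carry the same values. Of the other 4 probe sets, 3 also had a difference above 0 at 24 h (0.13, 0.42 and 0.42), and 1 had -0.39, so the direction at 24 h rests on the probe set.

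Complex IV, cytochrome c oxidase, hands the electrons to oxygen. Among its 11 widely expressed genes, 7 were higher in KO at 24 h (median 0.12), and 9 were lower at 24 h than at 12 h in WT (median -0.09). Of all genes, 50.9% were higher in KO at 24 h, and 49.1% were higher at 24 h in WT. Cox7b, a small structural subunit, was at 6.89 in KO and 6.50 in WT at 24 h, and at 7.57 in KO and 7.44 in WT at 12 h. It was lower at 24 h in both genotypes, by 0.69 and 0.94, with the lowest value in WT at 24 h. The time effect over both genotypes was -0.81 (SE 0.13), with a limma adjusted p of 0.1685, and it passed at 0.008696 when the variances were fitted with a trend on level and at 0.04752 with a filter at the 60th percentile. A dimmer probe set of Cox7b, near 3, gave time differences of -0.08 in KO and -0.79 in WT. Cox6a1, whose promoter is shown above, was at 11.08 in KO and 10.71 in WT at 24 h, and at 11.10 in KO and 11.11 in WT at 12 h. Here WT at 24 h stood alone, 0.36 or more below the other 3.

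Cox5b, a zinc-binding subunit, showed its one departure in the KO 12 h array, at 7.79 in KO and 7.80 in WT at 24 h, and at 8.46 in KO and 7.90 in WT at 12 h. Its second, dim probe set did not repeat this, with 2.84 in KO and 2.45 in WT at 24 h, and 2.84 in KO and 3.40 in WT at 12 h. With the mean over probe sets, Cox5b and Cox7b were no longer past 1.5-fold in KO. Cox4i1 and Cox5a, which pair in the assembled enzyme, were lower in KO at both times. Cox4i1 was at 9.04 in KO and 9.13 in WT at 24 h, and at 8.97 in KO and 9.14 in WT at 12 h, and Cox5a was at 7.66 in KO and 7.81 in WT at 24 h, and at 7.64 in KO and 7.86 in WT at 12 h. Both KO arrays lay below both WT arrays in each case, by no more than 0.22. Cox7a2l, which links complexes III and IV into supercomplexes, was higher in KO at both times and higher at 24 h in both genotypes, with 6.13 in KO and 5.97 in WT at 24 h, and 5.85 in KO and 5.68 in WT at 12 h. Cox7c was at 4.28 in KO and 4.41 in WT at 24 h, and at 4.37 in KO and 4.59 in WT at 12 h, and Cox8a was at 10.07 in KO and 9.85 in WT at 24 h, and at 9.94 in KO and 9.78 in WT at 12 h. Cox7c was lower and Cox8a higher in KO both times. Cox6b1 spanned 8.31 to 8.65, Ndufa4, now counted with complex IV, 9.11 to 9.38, and Cox7a2 7.77 to 7.86, all lowest in WT at 24 h.

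The 5 tissue-restricted or inducible genes of complex IV past the filter all had mean levels under 5. Cox4i2, the form known from lung and from cells short of oxygen, was at 3.37 in KO and 2.95 in WT at 24 h, and at 2.38 in KO and 2.56 in WT at 12 h. It was higher at 24 h in both genotypes, by 0.99 and 0.39, and in the limma fit the time effect of 0.69 (SE 0.18) had an adjusted p of 0.2631. Ndufa4l2, the hypoxia-inducible relative of Ndufa4, was at 2.55 in KO and 3.05 in WT at 24 h, and at 2.52 in KO and 2.58 in WT at 12 h, so that only the WT 24 h array was raised. Cox6a2, the heart and skeletal muscle form of Cox6a1, was at 3.87 in KO and 3.55 in WT at 24 h, and at 4.20 in KO and 4.44 in WT at 12 h. Cox7a1, the muscle form of Cox7a2, was at 4.18 in KO and 3.92 in WT at 24 h, and at 4.24 in KO and 4.28 in WT at 12 h. Both muscle forms were lowest in WT at 24 h. Cox6b2, known from testis, spanned 2.99 to 3.19. The summed level of the 10 skeletal and heart muscle markers was log2 6.63 in KO and 6.03 in WT at 24 h, and 6.13 in KO and 6.18 in WT at 12 h. The 8 of them past the filter had a median KO minus WT difference of 0.68 at 24 h and -0.01 at 12 h. Among these 8, Acta1, skeletal actin, was at 1.62 and Myh4, a fast myosin, at 1.56 at 24 h. The filter uses the mean of all 4 arrays. Myh4 was at 3.72 in KO and 2.16 in WT at 24 h, and 1.97 in KO and 2.46 in WT at 12 h. Its high KO 24 h value helped it past the filter, so the median at 24 h partly follows from the selection. Actc1 and Myh2, under the filter, were at -1.01 and -0.03 at 24 h. In the 4 arrays, 2 to 5 of the 10 were under the filter, and the part of muscle RNA in the values of Cox6a2 and Cox7a1 was not tested.

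**Figure D4:**
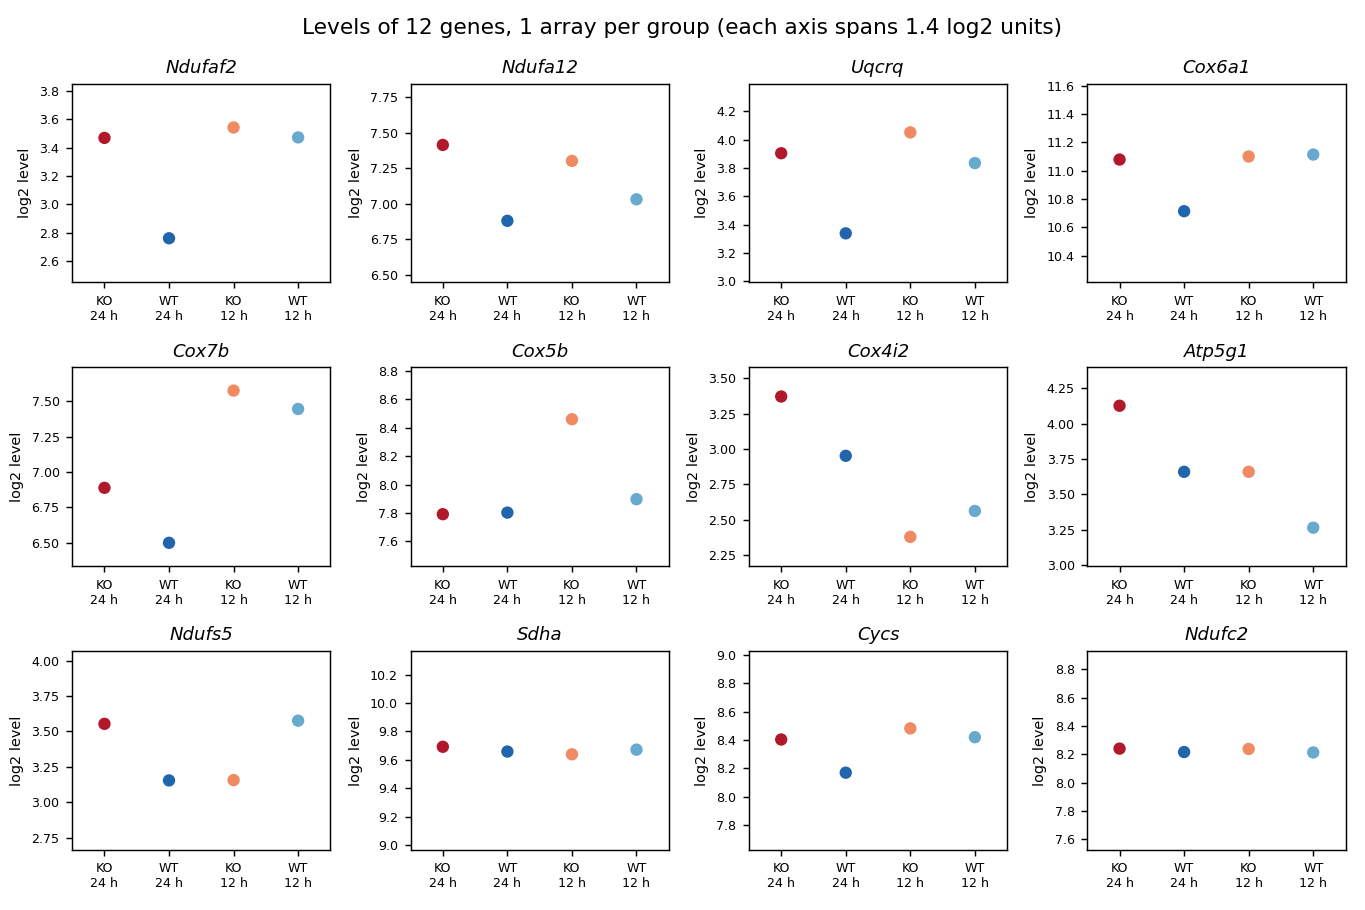
Log2 levels of 12 of the genes in the 4 arrays, 1 point per array, with every vertical axis spanning the same width. Ndufaf2, Uqcrq, Cox6a1 and Cycs have their low point in WT at 24 h, Cox7b is lower at 24 h in both genotypes, Cox5b stands out in KO at 12 h, and Sdha and Ndufc2 are nearly flat.

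For KO minus WT at 24 h, complex V had the smallest median of the 5 complexes. Of its 17 genes, 10 were higher in KO at 24 h (median 0.06) and 10 at 12 h (median 0.03), and 10 were lower at 24 h than at 12 h in WT. Of all genes, 50.9% and 50.6% were higher in KO at 24 h and 12 h, and 49.1% were higher at 24 h in WT. In the catalytic head, Atp5a1, the alpha subunit, was nearly constant at 9.96 to 10.05. Atp5b, the beta subunit, was at 10.54 in KO and 10.41 in WT at 24 h, and at 10.65 in KO and 10.58 in WT at 12 h. It spanned 0.23 and was lowest in WT at 24 h. In the central stalk, the gamma and delta subunits were lower in KO at both times, and Atp5e, the epsilon subunit, spanned 7.33 to 7.49. Atp5c1, the gamma subunit, was at 4.38 in KO and 4.51 in WT at 24 h, and at 4.41 in KO and 4.67 in WT at 12 h. Atp5d, the delta subunit, was at 8.22 in KO and 8.40 in WT at 24 h, and at 8.02 in KO and 8.39 in WT at 12 h. A second probe set of Atp5d gave 0.13 at 24 h and -0.06 at 12 h, so its direction at 24 h differs between probe sets. Atp5o, which joins the head to the outer stalk, was at 2.71 in KO and 3.00 in WT at 24 h, and at 2.75 in KO and 3.21 in WT at 12 h. Its genotype effect was -0.37 (SE 0.12) with a limma adjusted p of 0.7605, at a low level.

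The c subunit of the proton-driven ring is made from 3 genes whose mature protein is the same. Atp5g1 was at 4.13 in KO and 3.66 in WT at 24 h, and at 3.66 in KO and 3.27 in WT at 12 h. It was higher in KO at both times (0.47 and 0.39) and higher at 24 h in both genotypes (0.47 in KO and 0.39 in WT), with a genotype effect of 0.43 (SE 0.11) and limma adjusted p values of 0.7605 for genotype and 0.2607 for time. Atp5g2 and Atp5g3 barely moved: Atp5g2 spanned 10.53 to 10.63 and Atp5g3 7.37 to 7.50. Atp5j2, a small membrane subunit, was at 3.01 in KO and 2.74 in WT at 24 h. At 12 h it was at 3.12 in KO and 2.64 in WT. It was thus higher in KO both times, at a low level. Atp5j, a coupling factor of the stalk, was at 5.39 in KO and 5.61 in WT at 24 h, and at 5.59 in KO and 5.43 in WT at 12 h, on opposite sides at the 2 times. Atp5k, subunit e, was at 5.43 in KO and 5.40 in WT at 24 h, and at 5.64 in KO and 5.76 in WT at 12 h. It was lower at 24 h in both genotypes, by 0.21 and 0.36. Atp5md and Atp5mpl, small subunits of the membrane part, were each lowest in WT at 24 h, with KO minus WT differences of 0.16 and 0.21 there.

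Regulators and partners of the chain were also read. Of 14 regulators of mitochondrial gene expression, 12 were past the filter, with median KO minus WT differences of 0.03 at 24 h and 0.05 at 12 h. For the factors whose motifs were searched, the differences at 24 h were -0.03 for Nrf1, -0.17 for Gabpa, 0.11 for Yy1 and -0.07 for Esrra, an estrogen-related receptor. Tfb2m, a mitochondrial transcription factor, was at 5.86 in KO and 5.06 in WT at 24 h, and at 5.93 in KO and 6.07 in WT at 12 h. The WT 24 h array alone was low for Tfb2m, as for Ndufaf2 and Cox6a1, with a genotype difference of 0.80 and a time difference in WT of -1.01. Of 12 genes of coupling and electron entry, 11 were above 0 at 24 h (median 0.15), where 50.9% of all genes were. At 12 h, 11 were above 0 (median 0.08), beside 50.6% of all genes. Ucp3, an uncoupling protein relative, was the 1 past 1.5-fold between the genotypes, beside 6.49% of all genes at 24 h. It was at 3.25 in KO and 2.63 in WT at 24 h, and at 2.72 in KO and 2.43 in WT at 12 h. These levels lie near the level filter. Dhodh, which feeds electrons from pyrimidine synthesis into ubiquinone, was the exception below 0 at 24 h, with 5.05 in KO and 5.59 in WT, and 5.23 in KO and 4.89 in WT at 12 h, a time difference of 0.70 in WT. The subunits encoded in mitochondrial DNA were not analysed here.

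Second, dimmer probe sets went against the main one at 24 h for Ndufa8, an accessory subunit of complex I (-0.42, where the main one gave 0.22), for Atp5e (-0.28, where it gave 0.14) and for Atp5h, a stalk subunit of the ATP synthase (-0.22, where it gave 0.06). Cox5b, Atp5d and 1 probe set of Cycs, described above, also differed in sign at 24 h. At 12 h the dimmer probe set of Ndufa11, at a mean level of 3.28, gave 1.01, where the main one gave -0.12. Signs differed at 12 h too for Cox7b (-0.70 in the dimmer, 0.13 in the main), Ndufa8 (-0.36 and 0.07) and Atp5h (-0.25 and 0.04). The same held for Cox5b and Ndufa12, described above.

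The 5 genes under the filter lay near the background of the arrays. Cox7b2 spanned 1.73 to 2.10, Cox8b 1.83 to 2.08, Cox8c 1.55 to 1.79 and Uqcrh-ps1 1.52 to 1.96. Atp5c1-ps was at 1.91 in KO and 1.77 in WT at 24 h, and at 3.18 in KO and 2.14 in WT at 12 h, so the KO 12 h array alone was high. Over all 86 genes past the filter, the span from lowest to highest array had a median of 0.27, beside 0.33 over all genes, and 27 genes spanned under 0.2. Cox7b had the widest span, at 1.07.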

How the data were processed

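Transcript levels were measured on Affymetrix whole-transcript arrays, 1 per group. The authors deposited log2 values for each probe set. RMA made them, per the submitters' processing notes, and its quantile step hides any shift common to all transcripts. The log2 scale was read from the values (up to 13.2). The genome build and annotation of the authors are not given in the sources used here, and symbols came from the platform annotation. There were 0 unmatched columns. All 91 genes matched the RefSeq gene table.

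Each gene took its single-symbol probe set with the highest mean, and genes at or above the 40th percentile of mean level were kept. Differences are log2 values subtracted, KO minus WT or 24 h minus 12 h. Counts used folds of 1.5 and 1.2. limma 3.58.1 in R 4.3.3 fitted genotype plus time over all 13308 genes, with Benjamini-Hochberg adjustment. Its 1 residual degree of freedom measures how the genotype difference changed from 12 h to 24 h, not an error between replicates, and nothing states that the pooled samples came from separate mice. The fit was also run on simulated data, in which the genotype difference was the same at both times apart from independent noise. That run does not bear on what the 1 residual degree of freedom measures in these arrays. The number of arrays limits the precision.

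Genes named with 4 array values were those past 1.5-fold, the extremes of each complex in each comparison, the catalytic or core subunits and the paralogue pairs; other members are named as examples. The members, lists and motifs were chosen with earlier results of these data known. Alternatives were other filters, folds, normalizations and probe set rules, and subsets of the genes.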

Additional observations from a re-analysis of the deposited data

Results flagged for a closer look

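Ndufs5 differed between the genotypes in opposite directions at the 2 times. The KO minus WT difference was 0.40 at 24 h and -0.42 at 12 h, so that the 2 values lie 0.82 apart. The same 4 values give time differences of 0.40 in KO and -0.42 in WT, which also lie 0.82 apart. With 1 array per group this contrast was not tested. The probe set annotated to both Ndufs5 and Ndufs5-ps, at a higher level, gave 0.44 at 24 h and 0.14 at 12 h.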

How the results depend on the processing

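Each comparison was recomputed under 10 alternatives of filter, normalization, probe set rule and choice of genes, of which 3 gene choices were made with the data seen. The median difference and the share of genes above 0 kept their side, except that the share at 12 h came down to 50%: for KO minus WT at 24 h the median ran from 0.05 to 0.09 and the share from 64.0% to 73.9%, at 12 h from 0.00 to 0.03 and from 50% to 63.0%, for 24 h minus 12 h in KO from -0.05 to -0.02 and from 34.8% to 41.9%, and in WT from -0.14 to -0.10 and from 21.7% to 32.6%. The share of genes lowest in the WT 24 h array ran from 43.0% to 56.5% in 9 alternatives, added after seeing the data, with the low end under median centring.

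The counts past a fold moved. Shares of all genes were taken only at 1.2-fold and 1.5-fold, and are given above. The counts at 1.3-fold and 2-fold have no such share beside them and are not read as results about these genes. For KO minus WT at 24 h, 1.2-fold gave 19 higher and 2 lower, 1.3-fold gave 9 and 1, and 2-fold gave 0 higher. At 12 h, 1.2-fold gave 5 higher and 6 lower, and 1.3-fold gave 3 and 4. For 24 h minus 12 h in KO, 1.2-fold gave 10 higher and 5 lower, 1.3-fold gave 5 higher, and 2-fold gave 0 and 0. In WT, 1.2-fold gave 4 higher and 14 lower, 1.3-fold gave 3 and 8, and 2-fold gave 0 lower. At 1.5-fold, the 60th percentile filter gave 0 higher in KO at 24 h, 1 higher with time in KO and 1 lower in WT, and genes at a mean level of 7 or more gave 0, 0 and 1. Without the Ndufaf genes none was higher in KO at 24 h (0). With no filter 1 gene, Atp5c1-ps, was higher in KO at 12 h. The mean over probe sets, and genes with 1 probe set only, left 0 lower with time in KO, and leaving out the tissue-restricted complex IV genes left 1 higher. These follow from the fewer, more or averaged genes counted.

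In limma, 5 genes for genotype and 5 for time passed an unadjusted 0.05. With a trend on level 1 gene (Cox7b) passed the adjusted threshold for time, beside 4.06% of all genes, as did 1 (Cox7b) with the 60th percentile filter, beside 1.65%. The cause of the trend result was not tested. The limma fit already sets KO against WT within each time, and it has no replicate block beyond that, with 1 array per group. Levels near background limit what can be read for Ndufaf2, Uqcrq, Cox4i2, Ndufa4l2, Atp5g1, Atp5j2, Atp5o and Ndufs5.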

Other observations

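Probe sets that name an oxidative phosphorylation gene together with another symbol were outside the rule. The bright Cox6c probe set, shared with Gm6265, was at 9.27 in KO and 8.90 in WT at 24 h, and at 9.28 in KO and 9.15 in WT at 12 h. The Uqcr10 probe set, shared with Gm6293, was at 5.83 in KO and 5.25 in WT at 24 h, and at 5.67 in KO and 5.78 in WT at 12 h. The bright Ndufs6 probe set, shared with Ndufs6b, was at 8.14 in KO and 7.95 in WT at 24 h, and at 8.37 in KO and 8.23 in WT at 12 h. All 3 were lowest in WT at 24 h. Cox6c and Uqcr10 are small subunits of complexes IV and III, and Ndufs6 is a zinc-binding subunit of complex I. The Ndufb2 probe set, shared with Adck2, had a KO minus WT difference of -0.08 at 24 h.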
